A study of Rattus norvegicus with 25 samples.

Results

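The combined gel was set against the midpoint of its 2 single-agent gels: for each gene, the mean log2 value of the Cur/ZNP gel group minus the average of the Cur gel and ZNP gel means, each with a weight of 0.5. The comparison used 15 of the 25 rat gingiva libraries, 5 per gel, and covered 16092 of 30547 genes. The Cur/ZNP gel carried 1 mg/mL of curcumin and 1 mg/mL of zinc oxide nanoparticles (ZNPs) in methylcellulose hydrogel, the Cur gel 2 mg/mL of curcumin and the ZNP gel 2 mg/mL of ZNPs. If the gene responses to the agents simply added on the log scale and were proportional to dose, the combined gel would lie on the midpoint, so the difference measures departure from additivity under that assumption. No gel was given at a matched dose of 1 agent alone, so proportionality to dose was not tested.

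All rats were wild-type Sprague-Dawley, 6 weeks old per the labels and 8 weeks old and male per the methods of the study. The 3 gel groups carried experimental periodontitis (EP), made with silk ligatures around both maxillary first molars and Porphyromonas gingivalis on the silk. A month after ligature placement they received 200 μL of gel in the periodontal pocket, once a week for 4 weeks. Tissue was taken after the gel weeks, so the rats were by then older than the 8 weeks of the methods. The EP group had ligature and bacteria without a drug gel, and the sources do not say whether it got blank gel. Sham rats, healthy controls, received blank hydrogel. Each library came from 1 rat, so the spread is between animals.

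Periodontitis is a bacterial inflammation of the gum that breaks down collagen fibres and the bone that holds the tooth. Gingiva consists of a keratinizing epithelium over collagen-rich connective tissue with fibroblasts, vessels and immune cells, and the oral tissues next to it hold minor salivary glands and muscle. Curcumin is a plant polyphenol studied for anti-inflammatory and antioxidant activity, and zinc oxide nanoparticles are antibacterial particles that release zinc ions, to which cells respond through metallothioneins and zinc transporters.

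Libraries of the 15 gel-treated rats held 58815120 to 81791804 reads. Markers of epithelium, leukocytes and endothelium were present in all of them. The epithelial keratin Krt13 ranged from 3241 to 11614 CPM (counts scaled to the library total) in the Cur/ZNP gel group, 2211 to 7786 CPM in the Cur gel group and 4699 to 8767 CPM in the ZNP gel group, and the leukocyte marker Ptprc was at least 17.5 CPM in each library. The endothelial marker Pecam1 had no match among the gene names used here, while Cdh5, the endothelial cadherin, was at least 52.3 CPM. Skeletal muscle genes were present in all 3 gel groups, with Ckm, muscle creatine kinase, between 756 and 5875 CPM in Cur/ZNP gel libraries, 23.4 and 4564 CPM in Cur gel libraries and 785 and 6445 CPM in ZNP gel libraries.

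Gland transcripts set 4 libraries apart and touch many of the results. Muc5b, the main gel-forming mucin of mucous salivary glands, took 0.0418%, 5.01%, 7.61%, 0.0392% and 0.00290% of the reads in Cur/ZNP gel libraries 1 to 5. It took 4.87%, 4.36%, 4.85%, 10.2% and 5.21% in Cur gel libraries 1 to 5, and 3.31%, 7.90%, 0.270%, 4.32% and 3.02% in ZNP gel libraries 1 to 5. Cur/ZNP gel 1, 4 and 5 and ZNP gel 3 were thus low, and the other 11 libraries held at least 3.02% of their reads in this 1 gene. Muc5b was named after its values were seen. EP libraries ranged from 0.00349% to 10.9% and sham libraries from 0.00179% to 3.34%, so low Muc5b shares also occurred without any drug gel. In EP rats a low Muc5b share did not go with low levels of other gland genes. The summed normalized count of 15 gland epithelium genes reached the low gel range in sham but in no EP library. The lowest sham library had 17915 and the lowest EP library 77081, against 7740 to 19228 in the 4 low gel libraries. In bulk tissue, fewer cells of a type and less RNA per cell cannot be told apart. Results that moved with these libraries are therefore given also from a fit with the mean log2 value of 15 gland epithelium genes as a covariate, and from a fit without the 4 low libraries, which leaves 2 Cur/ZNP gel libraries. Both were added after the values were seen. Of the 2 Cur/ZNP gel libraries left, library 2 was rich in nerve transcripts. A list of neuron genes summed to 61823 normalized counts there, against 2148 in library 3. The median contrast of that list was 2.86 without the 4 low libraries, beside 0.94 with all libraries.

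Across all genes, no departure from the midpoint passed the test. Limma, fitted to all 25 libraries on log2(normalized count + 1), called 0 of 16092 genes (0%) at an adjusted p under 0.05 (Benjamini-Hochberg), and the smallest adjusted p was 0.332. At an unadjusted p under 0.05 it gave 1721 genes (10.7%), of which 634 (3.94%) lay above the midpoint and 1087 (6.75%) below it. This split turned round without the 4 low-gland libraries, where 540 genes (3.36%) lay above and 92 (0.572%) below. EdgeR on the whole reads recovered from the table called 0 genes, with 1648 at an unadjusted p under 0.05 and a smallest adjusted p of 0.375. DESeq2 on the same reads called 32 genes, 23 above and 9 below the midpoint, with 1968 at an unadjusted p under 0.05. In 13 of those 32, a single library held over 80% of the normalized count on the higher side. That side was the Cur/ZNP gel group for genes above the midpoint and the single gel libraries for genes below it. Of the 32, 15 had an unadjusted p under 0.05 in limma.

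The pairwise comparisons inside the midpoint share the Cur/ZNP gel libraries, and limma made 0 calls in either. Set against the Cur gel alone, 1780 genes (11.1%) had an unadjusted p below 0.05, 568 higher (3.53%) and 1212 lower (7.53%) in the Cur/ZNP gel group. EdgeR called 0 there, with 1585 unadjusted, and DESeq2 called 16, with 1997 unadjusted. Set against the ZNP gel alone, 818 genes (5.08%) were past that level, 386 higher (2.4%) and 432 lower (2.68%). EdgeR called 0 there, with 863 unadjusted, and DESeq2 called 26, with 1086 unadjusted. The Cur/ZNP gel mean lay above both single gel means in 6084 genes (37.8%), below both in 6244 (38.8%) and between them in 3753 (23.3%).

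The data bound the size of departure for most genes. The 95% interval of the contrast lay within 1 log2 unit of the midpoint in 11237 genes (69.8%) and within 0.5 log2 units in 5957 (37%), and its median half-width was 0.45. The median contrast was -0.0048, with 7892 genes (49%) above 0. All 5 Cur/ZNP gel libraries exceeded all 10 single gel libraries in 14 genes (0.087%) and lay under all 10 in 18 genes (0.112%). Of these, 10 of the higher and 16 of the lower genes had a usable symbol and a mean log2 CPM of at least 1. The 10 higher and the 12 lower genes with the smallest p among them are described next. Both the order and the absence of overlap chose them, so their values are a description and not a test. From here on, brackets after a contrast hold its 95% interval in log2 units. An interval clear of 0 equals an unadjusted p below 0.05 and not a call, since no gene passed adjustment.

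Nr1d1, the gene for REV-ERB alpha, a heme-binding repressor at the core of the circadian clock, had the smallest p of the 10 higher genes (chromosome 10, 86683875 to 86690815, minus strand, Rnor_6.0). Its normalized counts were 10889, 8474, 7916, 8510 and 8483 in the Cur/ZNP gel libraries, against 7053, 7696, 5653, 6321 and 5384 in the Cur gel libraries and 5957, 4937, 5861, 3079 and 4065 in the ZNP gel libraries. The lowest Cur/ZNP gel library stood above the highest Cur gel library, and the ZNP gel libraries were the lowest as a group. The contrast was 0.69 log2 units (95% interval 0.37 to 1.02, adjusted p = 0.332), or 1.62-fold. Against the Cur gel alone the log2 difference was 0.47, and against the ZNP gel alone 0.92. DESeq2 called Nr1d1 (adjusted p = 0.0225), and limma with the gland covariate gave 0.52 (0.15 to 0.90). The Cur/ZNP gel group averaged 8854 ± 1164 normalized counts, EP rats 10318 ± 1602 and sham rats 9541 ± 2641 (SD, n = 5 each).

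Of 19 clock genes compared, Nr1d1 included, 1 lay above and 0 below the midpoint at an unadjusted p below 0.05, near the shares over all genes (3.94% and 6.75%). The list ranged from -0.35 to 0.69 with a median contrast of 0.15. The time of day at which tissue was taken is not given in the sources used here.

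Col15a1, the gene for a basement membrane collagen of vessels and nerves, also showed no overlap (chromosome 5, 62840360 to 62950240, plus strand). Its normalized counts were 6372, 5837, 5586, 6508 and 6054 in the Cur/ZNP gel libraries. They were 2988, 4884, 3755, 2064 and 3805 in the Cur gel libraries and 3439, 2169, 4936, 4144 and 4341 in the ZNP gel libraries. The Cur/ZNP gel libraries spanned 5586 to 6508, and the highest single-gel library, ZNP gel 3, had 4936. The contrast was 0.79 log2 units (interval 0.35 to 1.22, adjusted p = 0.332), and with the gland covariate it was 0.68 (0.15 to 1.20).

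The other 8 genes with all Cur/ZNP gel libraries on top had contrasts of 0.17 to 0.85 log2 units. Kcne4, a regulatory subunit of voltage-gated potassium channels, averaged 184 ± 38.4 normalized counts in the Cur/ZNP gel group, 123 ± 20.8 in the Cur gel group and 88.5 ± 35.1 in the ZNP gel group (SD, n = 5 each; contrast 0.85, 0.25 to 1.45). Egflam, or pikachurin, an extracellular matrix protein known from the photoreceptor synapse, averaged 1190 ± 118, 802 ± 218 and 875 ± 138 in the same order of groups (contrast 0.53, 0.15 to 0.91). Vsnl1, a neuronal calcium sensor, had a contrast of 0.64 (0.14 to 1.13), Stac, an adaptor of calcium channels, 0.75 (0.20 to 1.30), and Cyp2j10, a cytochrome P450, 0.53 (0.17 to 0.89). Stxbp3, a syntaxin-binding protein of vesicle fusion, Septin8, a cytoskeletal GTPase, and Emp2, an epithelial membrane protein, differed least, with 0.17 (0.01 to 0.32), 0.27 (-0.08 to 0.61) and 0.31 (-0.13 to 0.75). With the gland covariate, Kcne4 was the 1 gene of these 8 whose interval stayed clear of 0.

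**Figure D1:**
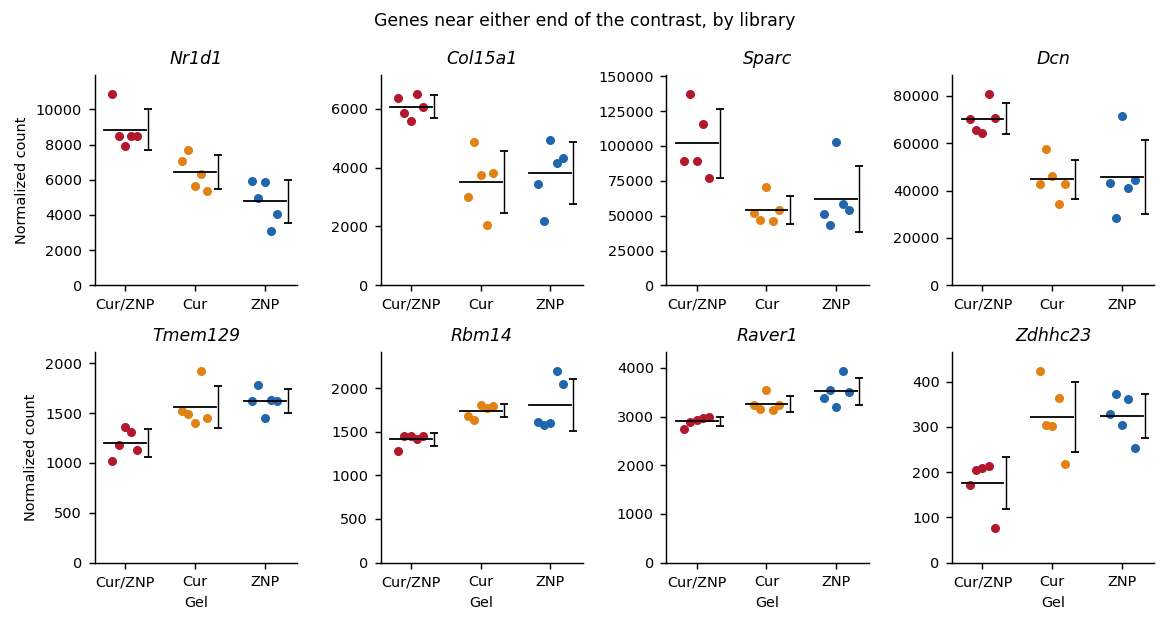
Normalized counts (vertical axes, linear from 0) of 8 genes in each library of the Cur/ZNP gel, Cur gel and ZNP gel groups (horizontal axis, points), with group means (lines) and SD (bars, n = 5). Nr1d1 and Col15a1 show every Cur/ZNP gel library above the single gels, Tmem129, Rbm14, Raver1 and Zdhhc23 every one below, and ZNP gel 3 overlaps the Cur/ZNP gel group in Sparc and Dcn.

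Most of the genes that lay under the midpoint without overlap had small differences. Rbm14, a nuclear RNA-binding coactivator (chromosome 1, 220048873 to 220067124, minus strand), had 1282, 1450, 1452, 1420 and 1450 normalized counts in the Cur/ZNP gel libraries. It had 1684, 1634, 1810, 1775 and 1799 in the Cur gel libraries and 1606, 1577, 1599, 2196 and 2044 in the ZNP gel libraries. The highest combined-gel library had 1452, under the lowest single-gel library with 1577. The contrast was -0.32 log2 units (interval -0.50 to -0.15, adjusted p = 0.332), and it was -0.33 with the gland covariate (-0.55 to -0.12).

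Tmem129, a ubiquitin ligase of the endoplasmic reticulum (chromosome 14, 82350734 to 82356078, plus strand), had 1018, 1178, 1359, 1312 and 1130 normalized counts in the Cur/ZNP gel libraries. The Cur gel libraries had 1524, 1494, 1401, 1925 and 1454, and the ZNP gel libraries 1618, 1784, 1451, 1634 and 1625. The gap between the highest Cur/ZNP gel and the lowest Cur gel library was narrow. Its contrast was -0.41 (interval -0.63 to -0.19, adjusted p = 0.332), and -0.27 with the gland covariate (-0.51 to -0.03).

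Zdhhc23, a palmitoyltransferase, had the largest difference of the 12 lower genes, with 175 ± 57.3 normalized counts in the Cur/ZNP gel group, 322 ± 77.3 in the Cur gel group and 324 ± 48.4 in the ZNP gel group (contrast -0.94, -1.57 to -0.31). Asb13, a substrate adaptor of ubiquitin ligases, followed with -0.63 (-1.07 to -0.20), and Tmem229b, a membrane protein, with -0.37 (-0.63 to -0.11). Wrap53, which brings telomerase RNA to Cajal bodies, had -0.35 (-0.59 to -0.10) and H2az1, the histone variant H2A.Z, -0.31 (-0.54 to -0.08). The splicing factors Raver1 and Aqr had -0.22 (-0.36 to -0.08) and -0.20 (-0.33 to -0.06). Farsa, a subunit of phenylalanyl-tRNA synthetase, Zpr1, a zinc finger protein, and Nup93, a nuclear pore subunit, lay at -0.23 (-0.41 to -0.05), -0.23 (-0.43 to -0.03) and -0.22 (-0.38 to -0.06). With the gland covariate the contrast of these 12 genes was negative, between -0.62 and -0.19.

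Connective tissue genes lay above the midpoint as groups. Of 23 fibroblast matrix proteoglycans and glycoproteins, 20 had a positive contrast, with 11 above and 0 below the midpoint at an unadjusted p below 0.05, against 3.94% above over all genes. The list's median was 0.55 log2 units, beside -0.0048 over all genes. Of 20 collagens and collagen-processing genes, 7 were higher and 0 lower at that level, with a median of 0.43. None of these genes passed adjustment. Of 18 matrix-degrading enzymes and their inhibitors 3 were higher and 0 lower, with a median of 0.36.

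Dcn, decorin, a small proteoglycan that binds collagen fibrils, had 70267, 65471, 64332, 80930 and 70787 normalized counts in the Cur/ZNP gel libraries. It had 42598, 57545, 45988, 34386 and 42997 in the Cur gel libraries and 43032, 28406, 71367, 41117 and 44641 in the ZNP gel libraries. Among the single gels, ZNP gel 3 alone reached the range of the combined gel. The contrast was 0.68 (interval 0.30 to 1.05, adjusted p = 0.332), 0.57 with the gland covariate (0.12 to 1.02) and 0.65 without the 4 low-gland libraries (0.14 to 1.17).

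Sparc, osteonectin, a collagen-binding glycoprotein of remodelling matrix, showed the same arrangement. Its normalized counts were 89014, 137514, 89557, 115989 and 76836 in the Cur/ZNP gel libraries, 51576, 47044, 70697, 46237 and 53872 in the Cur gel libraries, and 50922, 43191, 102915, 58704 and 53990 in the ZNP gel libraries. ZNP gel 3 was again the 1 single-gel library inside the combined-gel range. The contrast was 0.83 (interval 0.36 to 1.29, adjusted p = 0.332), and 0.65 with the gland covariate (0.10 to 1.19).

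The fibrillar collagens lay in the same direction with wider spread. Col3a1, the collagen III chain of young and repairing tissue, averaged 171248 ± 50589 normalized counts in the Cur/ZNP gel group, 90308 ± 16843 in the Cur gel group and 100248 ± 40151 in the ZNP gel group (contrast 0.85, 0.28 to 1.43). Col1a1, the main collagen of bone and gingiva, had 0.75 (0.11 to 1.39) and Col5a2, which regulates fibril diameter, 0.55 (0.08 to 1.01). Pcolce, the enhancer of procollagen C-proteinase, had 0.37 (0.06 to 0.68), Fbln5, an elastic fibre protein, 0.59 (0.21 to 0.97), and Pdgfra, a receptor for platelet-derived growth factor on fibroblasts, 0.50 (0.15 to 0.84).

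Among the matrix enzymes, Mmp3, stromelysin-1, had 2427, 363, 1658, 1883 and 1501 normalized counts in the Cur/ZNP gel libraries. It had 42.6, 1338, 518, 57.9 and 628 in the Cur gel libraries and 311, 696, 631, 762 and 1198 in the ZNP gel libraries. All Cur/ZNP gel libraries except library 2 lay above the single gels (contrast 1.69, interval 0.24 to 3.14). The aggrecanase Adamts5 had a contrast of 0.73 (0.23 to 1.24) and Adamts2, which cleaves procollagen, 0.51 (0.05 to 0.97). The gland covariate left 0 of the 18 matrix enzyme genes at an unadjusted p under 0.05, with Mmp3 at 1.49 (-0.27 to 3.26), Adamts5 at 0.56 (-0.05 to 1.16) and Adamts2 at 0.29 (-0.24 to 0.82). Mmp9, gelatinase B, followed a single library, with 3715 normalized counts in Cur/ZNP gel 1, against 56.4 to 934 in the other Cur/ZNP gel libraries and 35.6 to 739 in the single gels (contrast 1.02, interval -0.66 to 2.70).

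The gland markers lay on the other side of the midpoint from these connective tissue genes. With the gland covariate, 2 of the 23 fibroblast matrix genes and 1 of the 20 collagen genes kept an unadjusted p under 0.05 on the higher side, against 1.13% over all genes, and the medians were 0.35 and 0.16. Without the 4 low-gland libraries the medians were 0.46 and 0.42. The summed level of the fibroblast matrix list spanned 167728 to 399567 normalized counts in the ZNP gel group, where the highest value was in ZNP gel 3, the low-gland library. The part of the gland content in these differences was not tested beyond these fits.

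**Figure D2:**
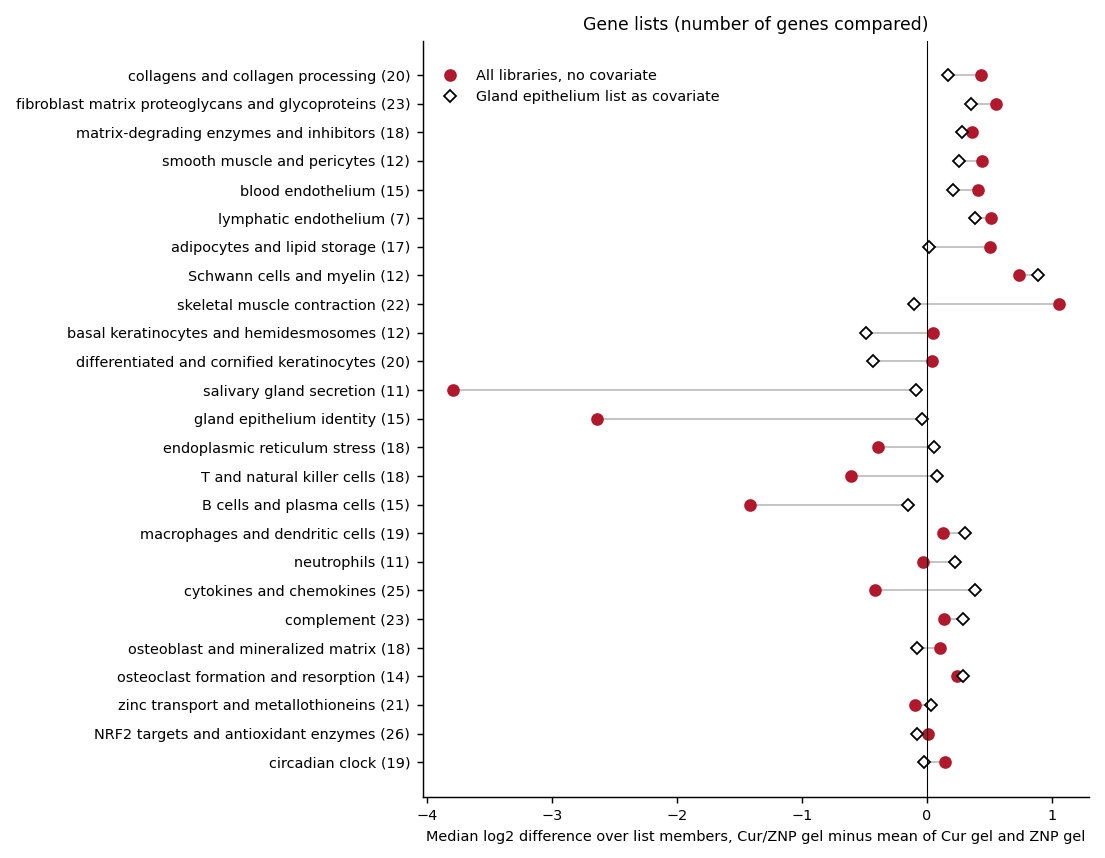
Median log2 difference (horizontal axis) of the members of 25 gene lists (vertical axis, number of genes compared in brackets), Cur/ZNP gel minus the mean of Cur gel and ZNP gel, in the fit without a covariate (filled points) and with the gland epithelium list as covariate (open diamonds). The salivary secretion and gland epithelium lists lie at -3.79 and -2.64 and move to -0.09 and -0.04 with the covariate, which is made of the gland epithelium genes, the collagen and fibroblast lists lie at 0.43 and 0.55 and keep 0.16 and 0.35, and the muscle list moves to -0.11, against 1.06 without it.

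Vessel genes lay slightly above the midpoint. Of 15 blood endothelial genes 14 had a positive contrast, with 5 above and 0 below it at an unadjusted p below 0.05 (median 0.41, or 0.21 with the gland covariate). Over all genes 49% had a positive contrast, 3.94% were higher and 6.75% lower at that level. Egfl7, an endothelial secreted factor, averaged 2675 ± 634 normalized counts in the Cur/ZNP gel group, 1626 ± 294 in the Cur gel group and 2165 ± 680 in the ZNP gel group (contrast 0.51, 0.17 to 0.84). Sox17, an arterial transcription factor, Emcn, a venous and capillary sialomucin, and Plvap, the diaphragm protein of fenestrae, had 0.45 (0.12 to 0.78), 0.43 (0.10 to 0.76) and 0.41 (0.03 to 0.79). With the covariate the 95% interval of each of these 4 included 0, and 0 of the 15 were higher. Of 7 lymphatic genes all lay above the midpoint (median 0.51) and 2 were higher at an unadjusted p under 0.05, Pdpn, podoplanin, with 0.38 and Reln, reelin, with 0.79 (0.11 to 1.47). Of 12 smooth muscle and pericyte genes 2 were higher, Mcam with 0.55 (0.16 to 0.95) and the PDGF receptor Pdgfrb with 0.45 (0.12 to 0.79). In the covariate fit 0 of these 12 were higher, while 3 were without the 4 low-gland libraries.

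Gland genes lay far below the midpoint. Of 15 genes of gland epithelium identity, 12 lay below and 0 above the midpoint with an unadjusted p below 0.05, against 6.75% lower over all genes, with a median contrast of -2.64 log2 units and none past adjustment. Their summed level ranged from 7740 to 147299 normalized counts in the Cur/ZNP gel group, from 110137 to 286098 in the Cur gel group and from 16825 to 292783 in the ZNP gel group. In Cur/ZNP gel libraries 2 of the 15 genes were at 0 in at least 1 library, and in the single gels 0 were. Of 11 salivary secretion genes, 7 were lower and 0 higher, with a median of -3.79.

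Krt8, a keratin of simple and glandular epithelium, had 184, 6937, 7664, 1182 and 141 normalized counts in the Cur/ZNP gel libraries. It had 12681, 8485, 12328, 18460 and 7902 in the Cur gel libraries and 11779, 19309, 780, 5875 and 11959 in the ZNP gel libraries. Cur/ZNP gel 2 and 3 were close to the single gels, and the other 3 combined-gel libraries were low together with ZNP gel 3. The contrast was -2.97 (interval -4.99 to -0.95, adjusted p = 0.332). Without the 4 low-gland libraries it was -0.64 (-2.68 to 1.41).

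Aqp5, the water channel of serous gland cells, repeated the arrangement with 96.5, 9397, 11463, 750 and 13.9 normalized counts in the Cur/ZNP gel libraries. It had 10756, 13803, 17608, 24548 and 7663 in the Cur gel libraries and 6591, 18162, 532, 8110 and 14136 in the ZNP gel libraries. Its contrast of -3.79 (-6.37 to -1.22) was -0.23 without the 4 low-gland libraries (-2.34 to 1.87). Spdef, a transcription factor of mucous secretory cells, had -4.12 (-6.71 to -1.54), the tight junction claudin Cldn3 -2.64 (-4.36 to -0.91), Krt18, the partner of Krt8, -3.70 (-5.98 to -1.42), and the secreted proteins Bpifb2 and Gp2 -4.71 (-8.62 to -0.80) and -4.44 (-7.77 to -1.10). In these 5 genes the contrast without the 4 libraries lay between -0.60 and 0.29.

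**Figure D3:**
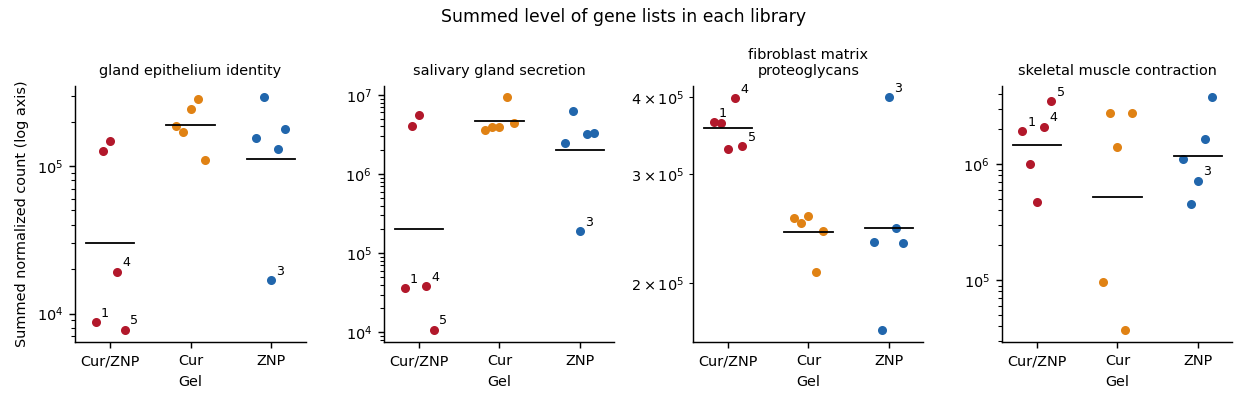
Summed normalized count (vertical axes, logarithmic) of 4 gene lists in each library of the Cur/ZNP gel, Cur gel and ZNP gel groups (horizontal axis, points), with geometric means (lines) and the numbers of the 4 low-gland libraries. Cur/ZNP gel 1, 4 and 5 and ZNP gel 3 are low in both gland lists, with 7740 to 19228 in gland epithelium identity against at least 110137 in the other 11 libraries, and not low in the fibroblast matrix or muscle lists.

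Ceacam1 and Cd47 are genes the study names, Ceacam1 in connection with bone resorption and Cd47 as its possible partner. The study picked both from expression differences between these gel groups in the same libraries. The permutation p-values below therefore describe the chosen genes and are not an independent test. Ceacam1, an adhesion receptor of epithelium, endothelium and leukocytes (chromosome 1, 82327955 to 82344345, minus strand, summed over 4 transcripts), had 704, 2481, 2143, 791 and 527 normalized counts in the Cur/ZNP gel libraries. It had 2505, 2675, 3634, 3338 and 1966 in the Cur gel libraries and 2384, 3400, 884, 1778 and 2553 in the ZNP gel libraries. Cur/ZNP gel 1, 4 and 5 lay under all single-gel libraries, and Cur/ZNP gel 2 and 3 lay within their range. The contrast was -1.11 (interval -2.03 to -0.18, adjusted p = 0.368), and an exact two-sided permutation test of 5 against 10 libraries gave p = 0.0147, where 0.000333 is the smallest p it allows. The log2 difference was -1.33 against the Cur gel (-2.40 to -0.27) and -0.88 against the ZNP gel (-1.94 to 0.19). The sign turned with the gland covariate, to 0.13 (-0.39 to 0.65), and without the 4 low-gland libraries the contrast was -0.18 (-1.33 to 0.98). The 4 lowest gel libraries for Ceacam1 were the 4 with the least gland transcript. EP rats had 3378 ± 1870 and sham rats 1816 ± 1643 normalized counts (SD, n = 5 each).

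Cd47, the "do not eat me" ligand of macrophage SIRP alpha (chromosome 11, 53514595 to 53575175, minus strand), did not depart from the midpoint beyond the spread. Its normalized counts were 3221, 5205, 4669, 3585 and 3205 in the Cur/ZNP gel libraries, 5379, 4425, 4994, 5708 and 3852 in the Cur gel libraries, and 5467, 5981, 3368, 4281 and 4297 in the ZNP gel libraries. The 3 groups overlapped. The contrast was -0.27 (interval -0.73 to 0.19; exact permutation p = 0.109), with 0.22 under the gland covariate (-0.17 to 0.62) and 0.012 without the 4 low-gland libraries (-0.65 to 0.68). Thbs1, thrombospondin-1, a ligand of CD47, had -1.79 (-3.14 to -0.43), and -0.34 without the 4 libraries (-1.92 to 1.25).

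Other genes of bone turnover were mixed. Of 12 negative regulators of bone resorption, Ceacam1 was the 1 below the midpoint at an unadjusted p below 0.05 and 0 were above it. Over all genes 6.75% were lower and 3.94% higher at that level. The median of the list was 0.04. Tnfrsf11b, osteoprotegerin, the decoy receptor that blocks RANKL, had 592, 877, 802, 794 and 2344 normalized counts in the Cur/ZNP gel libraries, 635, 628, 1149, 716 and 477 in the Cur gel libraries and 539, 461, 720, 532 and 700 in the ZNP gel libraries. Apart from Cur/ZNP gel 5 its range overlapped the single gels (contrast 0.58, interval -0.02 to 1.19). Bglap, osteocalcin, had a contrast of -0.86 (interval -2.32 to 0.59).

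Of 14 genes of osteoclast formation and resorption 1 was higher and 1 lower at that level, near the shares over all genes (3.94% and 6.75%). Csf1, the macrophage growth factor that osteoclasts need, had 0.29 (0.02 to 0.55), and 0.35 with the gland covariate (0.03 to 0.67). Acp5, the tartrate-resistant acid phosphatase of osteoclasts, had -0.70 (-1.28 to -0.12), but -0.12 with the gland covariate (-0.65 to 0.41) and -0.18 without the 4 low-gland libraries (-0.84 to 0.48). Ctsk, cathepsin K, had 0.54 (-0.02 to 1.11). Of 18 osteoblast and mineral genes 2 were higher, Sparc and Col1a1, and 2 lower at an unadjusted p below 0.05, and 0 were either with the gland covariate. Alpl, tissue-nonspecific alkaline phosphatase, averaged 928 ± 708 normalized counts in the Cur/ZNP gel group, 1790 ± 713 in the Cur gel group and 1803 ± 629 in the ZNP gel group (contrast -1.15, interval -1.85 to -0.46), and -0.30 without the 4 low-gland libraries (-1.17 to 0.58). Runx2, the master transcription factor of osteoblasts, had -1.04 (-1.99 to -0.09) and 0.19 without the 4 libraries (-0.83 to 1.21).

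**Figure D4:**
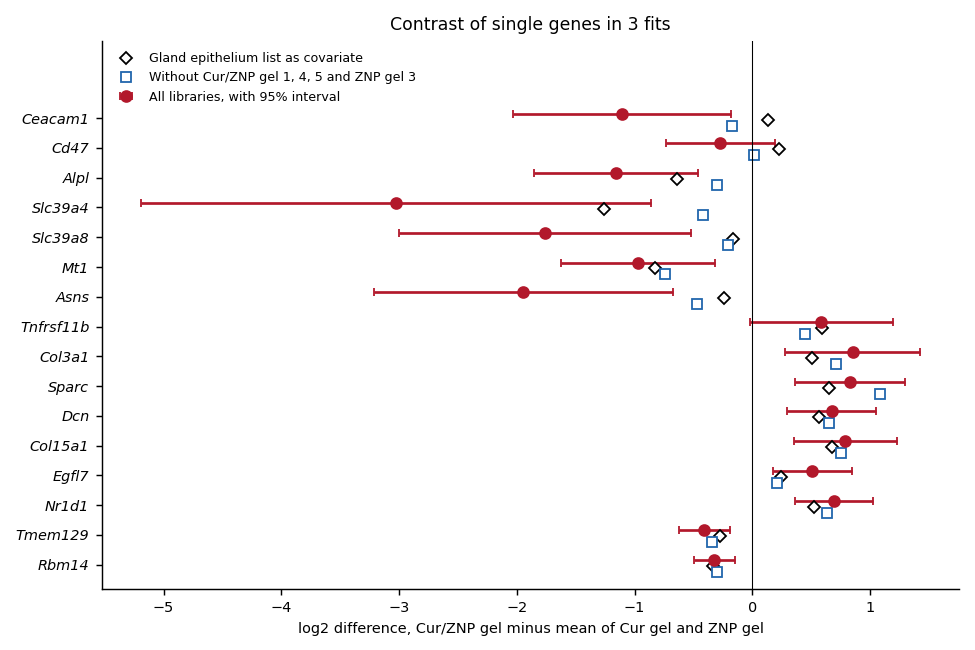
Log2 difference between the Cur/ZNP gel and the mean of Cur gel and ZNP gel (horizontal axis) for 16 genes (vertical axis), from all libraries with 95% intervals (filled points), with the gland covariate (diamonds) and without Cur/ZNP gel 1, 4 and 5 and ZNP gel 3 (squares). Ceacam1 moves to 0.13 with the covariate, against -1.11 in all libraries, while Nr1d1, Col15a1, Dcn, Sparc, Tmem129 and Rbm14 stay on their side of 0 in the 3 fits.

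Genes that answer zinc lay on both sides of the midpoint. Of 21 zinc transport and metallothionein genes, 1 lay above and 3 below the midpoint at an unadjusted p below 0.05, beside 3.94% and 6.75% over all genes, with a median of -0.10. The counts were 0 and 1 with the gland covariate and 0 and 0 without the 4 low-gland libraries. Mt1, a zinc-binding metallothionein induced by zinc, had 398, 556, 372, 262 and 279 normalized counts in the Cur/ZNP gel libraries. It had 1301, 597, 877, 1484 and 368 in the Cur gel libraries and 1074, 573, 332, 559 and 707 in the ZNP gel libraries. The combined gel had the lowest group mean, with overlap through Cur gel 5 and ZNP gel 3. The contrast was -0.97 (interval -1.62 to -0.31, adjusted p = 0.332), -1.19 against the Cur gel and -0.75 against the ZNP gel. It was -0.83 with the gland covariate (-1.62 to -0.03) and -0.74 without the 4 low-gland libraries (-1.67 to 0.19). EP and sham rats had 648 ± 147 and 996 ± 406.

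Mt3, a metallothionein known mainly from brain, lay on the other side, with 3115 ± 1278 normalized counts in the Cur/ZNP gel group, 1135 ± 713 in the Cur gel group and 2136 ± 1261 in the ZNP gel group (contrast 1.15, 0.06 to 2.24). The zinc importers Slc39a4 and Slc39a8 had -3.03 (-5.19 to -0.86) and -1.76 (-3.00 to -0.52), and -0.42 and -0.21 without the 4 low-gland libraries. Among 26 NRF2 targets and antioxidant enzymes, the targets usually linked to curcumin, 1 was higher and 2 lower, beside 3.94% and 6.75% over all genes, and the median was 0.01. With the covariate, and without the 4 low-gland libraries, 0 were higher and 0 lower. Gpx2, an epithelial glutathione peroxidase, had -0.69 (-1.18 to -0.21), Gsr, glutathione reductase, -0.36 (-0.68 to -0.05), and Sod3, the extracellular superoxide dismutase, 0.57 (0.03 to 1.11).

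Inflammatory genes did not depart as a group in a steady direction. Of 25 cytokines and chemokines 2 lay above and 2 below the midpoint at an unadjusted p below 0.05, beside 3.94% and 6.75% over all genes, and the median was -0.42, with 0.38 under the gland covariate. The epithelial chemokine Ccl20, which draws Th17 cells, and the neutrophil chemokine Cxcl1 had -2.02 (-3.74 to -0.30) and -1.88 (-3.60 to -0.16). The alarmin Il33 and the eosinophil chemokine Ccl11 had 0.53 (0.06 to 0.99) and 0.56 (0.03 to 1.09). Il33 was the 1 cytokine that kept an unadjusted p under 0.05 with the covariate (0.67, 0.11 to 1.23).

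Il1b, interleukin-1 beta, had 228, 2828, 204, 179 and 63.5 normalized counts in the Cur/ZNP gel libraries, 947, 79.6, 305, 261 and 127 in the Cur gel libraries and 2983, 377, 395, 291 and 292 in the ZNP gel libraries. In each of the 3 gels 1 library held most of the group's counts, Cur/ZNP gel 2, Cur gel 1 and ZNP gel 1, and the contrast of -0.37 had an interval of -1.92 to 1.18. Tnf, tumour necrosis factor, had -0.42 (interval -1.81 to 0.97). Il6, with at most 0.647 CPM in any library, and Il4, at 0, were below the filter.

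Immune cell lists were below or near the midpoint and moved with gland content. Of 15 B and plasma cell genes 14 were below it (median -1.42) and 0 were at an unadjusted p under 0.05 in either direction. Jchain, the joining chain of secreted antibody, ranged from 157 to 24357 normalized counts in the Cur/ZNP gel group, 1098 to 14402 in the Cur gel group and 5433 to 27369 in the ZNP gel group (contrast -1.99, -4.25 to 0.27). The list's median was -0.15 with the gland covariate. T and natural killer cell genes had a median of -0.61 and 0.08 with the covariate, with 0 of 18 at an unadjusted p under 0.05. Of 19 macrophage and dendritic cell genes, Cd14, the endotoxin co-receptor, was the 1 lower gene (6.75% over all genes), with -1.21 (-2.09 to -0.34). The receptor of endotoxin, Tlr4, had -0.39 (-0.74 to -0.04), and the NF-kB subunit Nfkb2 -0.44 (-0.86 to -0.02).

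Mast cell genes were mostly above the midpoint, 11 of 12, beside 49% over all genes. Their median was 0.47, with 0.20 under the gland covariate and 0.42 without the 4 low-gland libraries. At an unadjusted p below 0.05, 1 was higher and 1 lower, beside 3.94% and 6.75% over all genes. Hdc, the enzyme that makes histamine, averaged 177 ± 69.3 normalized counts in the Cur/ZNP gel group, 75.1 ± 27.4 in the Cur gel group and 100.5 ± 60.3 in the ZNP gel group (contrast 1.05, 0.03 to 2.08), and Cpa3, mast cell carboxypeptidase, had 0.74 (-0.02 to 1.49). Kit, the stem cell factor receptor and a marker of the same cells, had -1.03 (-1.92 to -0.15), with 0.17 under the gland covariate. Of 23 complement genes 2 were higher and 3 lower, beside 3.94% and 6.75% over all genes, and 0 were either with the gland covariate or without the 4 low-gland libraries. C1r, a protease of the classical pathway, had 0.42 (0.08 to 0.75), while factor B (Cfb) and C5 had -1.36 (-2.69 to -0.03) and -3.05 (-6.00 to -0.10). In the covariate fit C1r had 0.40 (-0.01 to 0.81) and Cfb 0.36 (-0.46 to 1.19), and 22 of the 23 genes lay above 0, against 13 without the covariate.

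Genes of the secretory stress response were low together. Of 18 endoplasmic reticulum stress genes 17 lay below the midpoint, 4 of them and 0 of the higher ones with an unadjusted p below 0.05, beside 6.75% lower over all genes (median -0.40). Asns, asparagine synthetase, had 585, 3609, 5099, 984 and 391 normalized counts in the Cur/ZNP gel libraries. It had 5632, 6298, 7049, 13371 and 3944 in the Cur gel libraries and 3771, 9478, 1198, 4266 and 5125 in the ZNP gel libraries. The low libraries were again Cur/ZNP gel 1, 4 and 5 and ZNP gel 3 (contrast -1.94, interval -3.21 to -0.68; -0.24 with the gland covariate, -0.92 to 0.45). Pdia4, a protein disulfide isomerase, Ern1, the stress sensor IRE1, and Atf4, the transcription factor of the integrated stress response, had -0.72 (-1.23 to -0.21), -0.46 (-0.84 to -0.07) and -0.46 (-0.90 to -0.03). With the covariate the list's median was 0.05.

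Keratinocyte lists had medians near the midpoint, 0.05 for 12 basal and 0.04 for 20 differentiated genes, but of -0.49 and -0.43 with the gland covariate. In that fit 4 of the 12 and 2 of the 20 genes lay above 0, and 0 had an unadjusted p under 0.05. Among the basal genes Krt19, a keratin of simple and basal oral epithelium that gland ducts also make, had -2.30 (-3.72 to -0.87), and -0.49 with the covariate (-1.41 to 0.44). The desmosomal cadherin Dsc2 was the 1 lower differentiated gene, with -1.06 (-1.84 to -0.29), and 0.049 without the 4 low-gland libraries. Over all genes 6.75% were lower at an unadjusted p below 0.05.

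Growth factor pathways held a few members on either side. Of 24 TGF-beta and BMP genes 3 were higher and 1 lower. Tgfbr3, betaglycan, a TGF-beta co-receptor, averaged 9094 ± 409 normalized counts in the Cur/ZNP gel group, 7023 ± 1421 in the Cur gel group and 6829 ± 973 in the ZNP gel group (contrast 0.41, 0.12 to 0.70; 0.35 with the gland covariate, 0.00 to 0.70). Ltbp1, which stores latent TGF-beta in the matrix, and Bmp4 had 0.43 (0.08 to 0.78) and 0.53 (0.00 to 1.05), and Inhbb, an activin subunit, -1.28 (-2.06 to -0.50). Of 23 Wnt genes 3 were higher, the ligand Wnt16 with 1.08 (0.14 to 2.01) and the secreted regulators Dkk2 with 0.74 (0.24 to 1.25) and Dkk3 with 0.46 (0.08 to 0.83), and 1 was lower, the co-receptor Lrp5 with -0.34 (-0.65 to -0.02). Over all genes 3.94% were higher and 6.75% lower. In the covariate fit the TGF-beta list had 1 higher and 1 lower and the Wnt list had 0 and 0, with medians of -0.0014 and -0.02, against 0.10 and 0.20 without the covariate. Neither list had a gene at that level without the 4 low-gland libraries, and none passed adjustment.

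Skeletal muscle lists had large medians with no member at an unadjusted p under 0.05, 0 of 22 contraction genes (median 1.06). The fast light chain Myl1 spanned 22811 to 199219 normalized counts in the Cur/ZNP gel group, 543 to 121963 in the Cur gel group and 22992 to 189913 in the ZNP gel group (contrast 1.25, interval -0.87 to 3.36). The groups overlapped throughout. The list's median was -0.11 with the gland covariate, so the direction depended on it.

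Neuronal genes rested on 1 library. Of 19 neuron and vesicle release genes all lay above the midpoint (median 0.94), 1 of them, Slc5a7, at an unadjusted p below 0.05, and their summed level was 61823 normalized counts in Cur/ZNP gel 2, against 2008 to 2238 in the other 4 Cur/ZNP gel libraries, 1255 to 4171 in the Cur gel group and 1188 to 2111 in the ZNP gel group. Slc5a7, the choline transporter of cholinergic neurons, had 6.96, 1637, 73.0, 31.6 and 0 normalized counts in the Cur/ZNP gel libraries, at most 46.6 in the Cur gel libraries and at most 4.94 in the ZNP gel libraries (contrast 3.80, 0.85 to 6.74). In 3 sham libraries the list's sum was at least 71608, so the high level also occurred without treatment. Over all genes 49% lay above the midpoint and 3.94% were higher at an unadjusted p below 0.05.

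**Figure D5:**
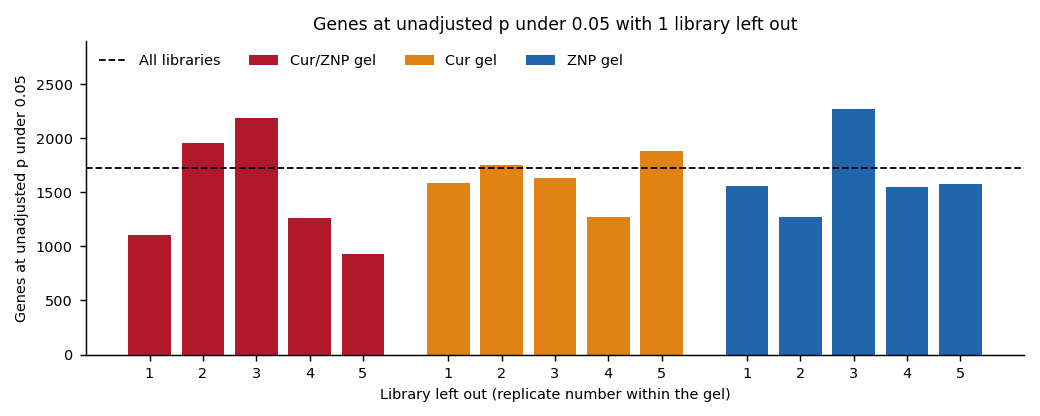
Number of genes at an unadjusted p under 0.05 for Cur/ZNP gel minus the mean of the single gels (vertical axis, from 0) when 1 library is left out (horizontal axis, replicate number, coloured by gel), with the count for all libraries as a dashed line at 1721. The count lies between 925, without Cur/ZNP gel 5, and 2266, without ZNP gel 3.

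Single libraries carried much of the contrast. Leaving out 1 gel library at a time gave 925 to 2266 genes at an unadjusted p under 0.05, with 925 without Cur/ZNP gel 5 and 1104 without Cur/ZNP gel 1, beside 1721 with all libraries. With the gland covariate the count was 408, of which 182 were higher (1.13%) and 226 lower (1.4%), and 183 of the 1721 genes also had an unadjusted p under 0.05 in that fit, while 175 changed sign. Besides DESeq2, 1 setting gave a gene past adjustment. Without ZNP gel 3, limma called Ldb2, a cofactor of LIM-domain transcription factors expressed in endothelium, with an adjusted p of 0.00839. Ldb2 had 2046, 1662, 1770, 2061 and 1735 normalized counts in the Cur/ZNP gel libraries, 1104, 1279, 1075, 1012 and 1257 in the Cur gel libraries and 1078, 856, 2197, 1024 and 1043 in the ZNP gel libraries. All single-gel libraries but ZNP gel 3 lay under all combined-gel libraries. With ZNP gel 3 included, its contrast was 0.68 (interval 0.35 to 1.01, adjusted p = 0.332). Ldb2 was named after its values were seen.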

How the data were processed

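Gingival RNA of 25 rats was sequenced from ribosome-depleted stranded libraries. The deposited signal values are reads per transcript (Rnor_6.0) that the authors divided by 1 size factor per library, with DESeq2 per the labels. The aligner is not given in the sources used here. Each column held whole multiples of the value of 1 read (100% of values within 0.01), which gave back whole reads, between 50690789 and 81791804 per library. The 41078 transcripts (840 blank lines apart, 396 without a symbol) gave 30547 genes after summing over transcripts, which joined more than 1 in 5674 genes.

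Genes with at least 2 CPM in at least 1 library, 16092 in all, entered limma 3.58.1 (R 4.3.3; robust, with trend) as log2(normalized count + 1) in 1 model of 25 libraries and 5 group means. Fold changes on this scale understate the change of low genes. The contrast was Cur/ZNP gel minus the mean of Cur gel and ZNP gel, two-sided, with Benjamini-Hochberg adjustment over all genes and a threshold of 0.05. Ceacam1 and Cd47, 2 genes that the study had picked from these libraries, also had an exact permutation test over 3003 arrangements. The limma steps were also run on simulated counts with known changes. Genes were drawn independently there, without shared gland variation, so that run does not speak to such variation. On the whole reads, DESeq2 1.42.0 and edgeR 4.0.16 with TMM factors served as alternatives, as did pseudocounts of 0.5 and 8, no low filter (24507 genes), a filter on 5 libraries (14869 genes), the gel libraries alone, a block for the rat number and each library left out in turn.

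Of 812 entries in 45 gene lists, 735 were compared and 39 matched no name. They are described by counts and medians, with no test of the list. Genes were named by these rules: up to 12 per side in order of p among genes without overlap between combined and single gels that have a symbol and average 1 log2 CPM or more, any gene past the threshold, the leading members of each list by p (4 at most), and the genes the study names. The members and lists were chosen with earlier results of these data known.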

Additional observations from a re-analysis of the deposited data

Results flagged for a closer look

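Groups of 5 libraries were examined on log2 values. The gap from the highest or lowest library to its nearest neighbour was taken as a share of the group's range. A value was looked at again where this share passed Dixon's 95% limit. Of 468 groups of the genes named and the gene lists, 39 (8.33%) had such a library, where chance gives about 1 in 20. Gene values are printed below as normalized counts, although the gaps were taken on log2 values, and list values are means of log2 values.

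ZNP gel 3 stood apart most often. It was the lowest ZNP gel library for the gland genes Aqp5 (532), Bpifb1 (145), Bpifb2 (15533), Muc5b (132899), Krt18 (543) and Spdef (317), and for the lists of salivary gland secretion (10.6) and gland epithelium identity (9.35). It was the highest for Emcn (5313), Ccl11 (8620), Ldb2 (2197) and Slc5a7 (4.94, the 1 ZNP gel library above 0).

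ZNP gel 1 was the highest ZNP gel library for Il1b (2983) and for the lists of antigen presentation (12.1), cytokines and chemokines (10.0402), Toll-like receptors and NF-kB (10.5) and interferon-stimulated genes (11.8). ZNP gel 5 was the lowest for junctional epithelium and enamel genes (4.86), and ZNP gel 2 for neurons and vesicle release (3.67).

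In the Cur/ZNP gel group, library 2 was the highest for the lists of neurons and vesicle release (10.7), complement (12.1) and negative regulators of bone resorption (9.04), and the lowest for Mmp3 (363), Bmp4 (784), Dkk2 (797) and Farsa (2025). Library 1 was the highest for Nr1d1 (10889) and the lowest for Rbm14 (1282). Library 5 was the highest for Tnfrsf11b (2344) and the lowest for Zdhhc23 (77.4).

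In the Cur gel group, library 4 was the highest for Tmem129 (1925), Acp5 (8996) and Gp2 (813596), and the lowest for the fibroblast matrix list (12.2). Library 2 was the lowest for the lists of neutrophils (5.21) and B and plasma cells (7.07). Library 5 was the highest for Emcn (3260) and the lowest for zinc transport and metallothioneins (10.2), and library 3 was the highest for Raver1 (3542).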

How the results depend on the processing

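Of 111 genes examined, 99 kept the sign of their contrast in all alternatives run. Many of these genes were chosen by a small p or by absence of overlap in the same data. Without overlap, the sign cannot change when libraries are left out, so this count is a description and not a test. Limma called 0 genes in all 3 contrasts, while DESeq2 on whole reads called 32 for the midpoint, 16 against Cur gel and 26 against ZNP gel. Leaving out 1 library gave 0 to 1 calls for the midpoint and 0 to 1 against ZNP gel, in both cases Ldb2 without ZNP gel 3. Genes at an unadjusted p under 0.05 numbered 1721, and 925 to 2266 with 1 library left out. 3 alternatives were chosen after seeing the data: the gland covariate (408), without Cur/ZNP gel 1, 4 and 5 and ZNP gel 3 (632), and without Cur/ZNP gel 1 and 5 (472). Without those 4 and those 2 libraries, 396 and 42 genes were higher and 224 and 43 lower without overlap, and 14 to 134 higher and 19 to 115 lower with 1 library left out. Fewer libraries in a group make such separation easier.

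The contrast turned positive with the gland covariate for Ceacam1 (0.13), Cd47 (0.22), Kit (0.17), Cfb (0.36), Il1b (0.75), Tnf (0.41) and Jchain (0.0063). It did so without the 4 low-gland libraries for Cd47 (0.012), P2rx7 (0.16), Runx2 (0.19), Dsc2 (0.049), Gp2 (0.29), Muc5b (0.28), Kit (0.060) and Il1b (1.06), and without Cur/ZNP gel 1 and 5 for Il1b (0.41) and Jchain (0.21). Il1b was also positive in edgeR (0.37) and DESeq2 (0.35), and ranged from -1.21 to 0.15 with 1 library left out, positive without Cur/ZNP gel 5. The cause was not tested. With 1 library left out, Ceacam1 ranged from -1.40 to -0.84 and Cd47 from -0.38 to -0.20.

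With a block for the rat number the count at an unadjusted p under 0.05 was 1763 and 0 genes were called. The numbers only name the rats: deviations of same-numbered libraries correlated at a median of -0.015 (-0.38 to 0.45), and those of other pairs at -0.039. With 5 rats per group and 1 tissue piece per rat, the median 95% half-width of 0.45 log2 units limits what the contrast can show. Its spread was estimated over all 25 libraries. The median SD was 0.50 log2 units in sham rats and 0.29 to 0.31 in the gel groups. The 15 gel libraries alone gave 2405 genes at an unadjusted p under 0.05, and leaving out Sham 4, EP 3 and EP 4 gave 2116. Limma called 0 genes in both.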

Other observations

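With the gland covariate, Hsf1, the master regulator of the heat shock response, had the smallest p of all genes (contrast -0.42, -0.62 to -0.21), against -0.21 (-0.43 to 0.01) without it, and the smallest adjusted p in that fit was 1.00. Its normalized counts were 2204 ± 226 in the Cur/ZNP gel group, 2522 ± 331 in the Cur gel group and 2559 ± 142 in the ZNP gel group (SD, n = 5 each), with overlap. The fit and the gene were chosen after the values were seen.

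The alpha-globin gene Hba-a3 had 393, 0, 178, 0 and 0 normalized counts in the Cur/ZNP gel libraries, 474, 259, 389, 362 and 369 in the Cur gel libraries, and 176, 130, 480, 539 and 363 in the ZNP gel libraries (contrast -5.13, -7.94 to -2.33, adjusted p = 0.332). It was the 1 lower gene of 8 red cell genes compared, whose median was -0.11. Over all genes 6.75% were lower at an unadjusted p below 0.05. Rat alpha-globin genes are near-identical copies, so reads may be split unevenly among them, and its 3 values of 0 make the fitted contrast depend on the pseudocount.

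Of 17 fat cell genes 1 was higher at an unadjusted p under 0.05, Pparg, the master regulator of fat cell formation, with 0.79 (0.23 to 1.36), and 0.35 with the gland covariate (-0.24 to 0.94). Nr3c1, the glucocorticoid receptor, was the 1 higher gene of 15 in the glucocorticoid list, with 0.19 (0.02 to 0.36). Plk1, a mitotic kinase, was the 1 lower gene of 21 proliferation genes, with -1.10 (-1.95 to -0.25) and -0.060 without the 4 low-gland libraries. Each of these lists had 1 gene at that level, near the shares over all genes, 3.94% higher and 6.75% lower.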
